A study of Mus musculus with 61 samples.

Results

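Cultured mouse hepatocytes that lack gp130 were compared at 12 h of IL-6 treatment and before it, in order to see how far gene expression moves over this time when the IL-6 receptor complex cannot signal. The members are the 6 gp130- arrays at 12 h and the 6 gp130- arrays at 0 h, 12 of the 61 arrays in the series, chosen by genotype and time alone and paired by the number that the deposited signal columns carry. Across 12157 tested genes, 0 genes passed the test at 12 h, whereas 104 genes (0.855%) passed in gp130flox hepatocytes over the same 12 h. The 2 changes differed between the genotypes for 31 genes, led by Socs3, Timp1, Denn2b, Pdzrn3 and Bcl3.

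The protein gp130, encoded by Il6st, is the shared signal-transducing receptor subunit of IL-6 and its relatives. When IL-6 and its own receptor chain bind to it, Janus kinases phosphorylate the transcription factor STAT3, which switches on the feedback inhibitor Socs3 and, in the liver, the acute phase genes whose secreted products reach the blood during inflammation. Hepatocytes taken into culture also change without a cytokine, because isolation, plating and the loss of liver architecture alter stress, metabolic and cytoskeletal genes over time.

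In gp130- mice, alb-cre tg; gp130 flox/flox, a Cre recombinase under the albumin promoter deletes the floxed gene in hepatocytes, and cells that do not use this promoter keep it. The gp130flox controls were littermates with the floxed gene and no Cre, and the labels give the strain of all mice as C57BL/6. No age is stated, and every culture was starved overnight without serum before IL-6 was added at 200 ng/mL. All gp130- arrays at 12 h therefore had IL-6 as well as 12 h more in culture, and an effect of time and an effect of IL-6 that does not need gp130 cannot be told apart here. The study's supplement names fewer mice per genotype than the numbers that the columns carry. Its methods and a figure caption give only lower bounds per group, which the 0 h and 12 h arrays meet. Whether each number is a separate mouse is therefore not settled, and p-values measure the spread between these arrays, which may be technical.

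Between 15257 and 19096 of 45281 probes were detected on each of the 12 arrays, whose number limits how precise every value is. The gp130- arrays that share a number, called a preparation here, were preparations 2, 3, 4, 6, 7 and 9. Preparations 2 to 4 and preparations 6 to 9 differ in their markers at both times: of 23 hepatocyte markers on the array, 12 were detected on all 6 arrays of the former and 20 on all 6 arrays of the latter. Alb and Cyp2c29 were detected on no array of preparations 2 to 4, and Cyp2e1 lay between 4.42 and 5.14 there on the log2 scale, against 13.1 to 14.0 in preparations 6 to 9. Anln, which encodes a protein of dividing cells, lay between 9.31 and 10.2 in preparations 2 to 4 and between 4.24 and 4.58 in preparations 6 to 9, whereas the liver transcription factor gene Hnf4a was well expressed in both sets (8.78 to 9.49 and 7.65 to 8.46). The Alb probe was low in preparations 6 to 9 too, at 5.87 to 7.36. In preparations 2 to 4 the brightest hepatocyte marker was Ttr, at 13.3. All arrays are labelled hepatocytes and are called so here, although albumin was not detected in preparations 2 to 4. Why the sets differ was not determined. Of 19 Kupffer cell and macrophage markers on the array 10 and 16 were detected on all arrays of the 2 sets, so transcripts known from other liver cells were present. Xist was high in preparations 2 and 3 (8.08 to 8.88, and at most 4.27 in the other preparations), at both times.

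Levels are log2 signals after background correction and normalization, and a change is the mean over the 6 preparations of the level at 12 h minus the level at 0 h. A gene was called when limma's Benjamini-Hochberg adjusted p was under 0.05 and the fold over 1.5. By this rule 0 of 12157 genes were higher and 0 lower at 12 h (0% called), and the smallest adjusted p was 0.391. At an unadjusted p under 0.05 there were 609 genes (5.01%), of which 287 (2.36%) were higher and 322 (2.65%) lower, and 11 of the 609 also passed the fold threshold. The median change over all genes was -0.01.

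Intervals were taken for each gene alone and not adjusted for the 12157 genes. Their width rests on a spread that limma estimated from all 61 arrays of both genotypes. A gene whose 6 gp130- pairs spread more widely is therefore bounded less firmly than its interval shows. The 95% interval of the change lay wholly within 1.5-fold in either direction for 11498 genes (94.6%) and within 2-fold for 12140 genes (99.9%). Among the 7354 genes detected on all 12 arrays the share within 1.5-fold was 94.2%. Only 12 genes had a mean change over 1.5-fold and 0 had one over 2-fold, with Saa3 the highest value at 0.64 and Cars, a cysteinyl-tRNA synthetase, the lowest value at -0.74. The other probes of Cars disagreed with the tested one and gave 0.03 and 0.12, and the tested one gave -0.47 without preparation 6. No gene went from detection on 0 arrays at one time to detection on all 6 at the other. The whole range of levels at 12 h lay outside that at 0 h for 3 genes (0.0247%), Cpa4, Farsa and Mrpl10, which were named after their values were seen.

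Preparations differed far more than times. Over the 12 arrays, the preparation accounted for a median of 84.2% of a gene's variance, the time for 1.31% and the rest for 12.6%. Time accounted for more variance than both others together in 12 genes. The paired changes of 2 preparations correlated across genes with a median of 0.03 over 15 pairs of preparations (-0.18 to 0.26), and with 0.13 over 21 pairs in gp130flox hepatocytes. Genes are not independent, and these correlations only describe how little of the change was shared.

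The spread of the paired changes was itself uneven. Its SD over all genes was 0.205 in preparation 2 and 0.209 in preparation 3, between 0.276 and 0.352 in preparations 4, 7 and 9, and 0.457 in preparation 6. In preparation 6, 374 genes moved over 2-fold between its 0 h and 12 h arrays, against 1 in preparation 2. Of the 12 genes with a mean change over 1.5-fold, 9 were lower at 12 h, and in each of these 9 preparation 6 changed by between -2.38 and -1.41. Among these, Nipbl, which loads cohesin onto chromosomes, changed by -0.67 over 6 preparations and by -0.34 without preparation 6, and Slc4a4, a bicarbonate cotransporter, by -0.62 and -0.30. The 12 h array of preparation 6 also correlated best with the 0 h array of preparation 7, and not with its own. Of the 71 named genes, 28 had a mean change that moved by over 1.5 times or turned in sign without preparation 6. This count was not made for the other preparations, so it does not single out preparation 6. Without preparation 6, 4 genes were over 1.5-fold and 367 (3.02%) passed at an unadjusted p under 0.05.

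**Figure D1:**
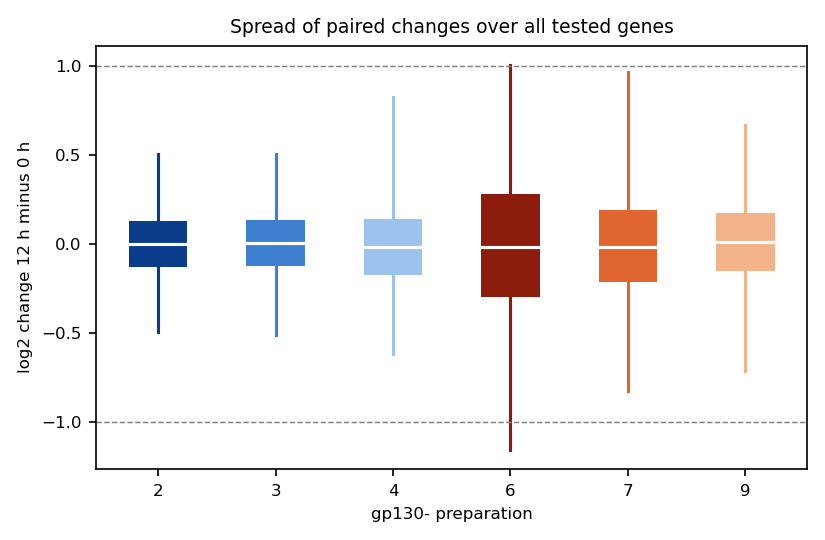
Paired log2 changes (12 h minus 0 h) of all 12157 genes in each gp130- preparation. Boxes span the 25th to the 75th percentile, the white line is the median, thin lines run from the 1st to the 99th percentile and dashed lines mark 2-fold; preparation 6 has the widest spread (25th percentile -0.301, 75th percentile 0.28) and preparation 2 a narrow one (-0.132 and 0.127).

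Il6st, the targeted gene, was still detected on all 12 arrays by 1 probe, at 5.04 to 6.33 with a mean of 5.57, against 5.91 to 6.63 with a mean of 6.31 on the gp130flox arrays at the same times. Its other probe was detected on 0 arrays of the series. Il6st changed by 0.01 ± 0.18 (limma's moderated SE from the fit of all 61 arrays, as for each SE here) over 12 h, higher in 3 of 6 pairs. The 2 genotypes' ranges of Il6st overlapped, and whether the tested probe lies in the deleted part was not determined.

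Socs3, the feedback inhibitor that STAT3 induces, showed the contrast between the genotypes at its widest. In gp130- hepatocytes its lowest, median and highest levels were 5.26, 5.96 and 7.01 at 0 h and 5.04, 6.16 and 7.11 at 12 h. The ranges overlapped almost wholly, and 4 of 6 pairs were higher at 12 h. The change was 0.12 ± 0.22 (SE, 95% interval -0.33 to 0.57) and 0.04 without preparation 6, against 2.57 ± 0.21 in gp130flox hepatocytes, higher in 7 of 7 pairs. The difference of the changes was -2.45 (limma, adjusted p = 2.15e-06).

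The promoter of Socs3 is shown because it holds the palindrome TTCNNNGAA, the core of the DNA element that STAT factors bind. The sequence is RefSeq's for GRCm38.p6, chr11:117969317-117969616 on the minus strand, 250 bases before to 50 after the gene's start, with the palindrome in capitals.
Socs3 promoter: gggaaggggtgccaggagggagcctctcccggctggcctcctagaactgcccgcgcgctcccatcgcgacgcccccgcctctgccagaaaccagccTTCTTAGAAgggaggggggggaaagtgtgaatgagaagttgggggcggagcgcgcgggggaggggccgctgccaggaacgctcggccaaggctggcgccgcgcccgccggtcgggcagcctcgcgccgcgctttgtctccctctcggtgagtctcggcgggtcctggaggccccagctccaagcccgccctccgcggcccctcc
The pattern TTCNNNGAA reads the same on both strands, and the match begins 154 bases before the start. Among all 32851 listed promoters of this length, 8.3% hold it, and 7.06% of the 12509 promoters of tested genes do. Among the 31 genes with a called difference of changes, 25 matched the table, and 4 of these had it in at least 1 listed promoter (B4galt1, Gcnt2, Socs3 and Tgm1). Counted by gene this is 16%, against 8.44% of the tested genes with a listed promoter. Counted by promoter it is 4 of 35 (11.4%), and neither difference was tested. A match is a description of these letters and not a measured binding site.

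The other genes of the IL-6 response taken from the study here were as flat in gp130- hepatocytes, apart from Saa3 and Hamp. Further genes that the study names, such as Cish, Osmr, Il13ra1 and Il24, are not given singly. Timp1, an inhibitor of matrix metalloproteinases, had a lowest, median and highest level of 5.54, 6.19 and 8.88 at 0 h and of 5.48, 6.28 and 8.80 at 12 h. Bcl3, a nuclear co-regulator of NF-kappaB, lay at 5.75, 6.14 and 6.84 at 0 h and at 5.76, 6.14 and 6.45 at 12 h. Both genes were higher in 3 of 6 pairs, with changes of 0.04 ± 0.24 and -0.09 ± 0.15 (SE), which were -0.02 and 0.00 without preparation 6. In gp130flox hepatocytes they changed by 1.93 and 1.21, and the differences were -1.89 (adjusted p = 0.00161) and -1.30 (adjusted p = 3.95e-04).
Nfkbiz, another such co-regulator, changed by 0.05 ± 0.13 and differed from its change in gp130flox hepatocytes by -0.86 (adjusted p = 0.0137). Lcn2, which encodes the siderophore-binding lipocalin 2, changed by 0.04 ± 0.15 from a median of 9.70 at 0 h, and by -0.01 without preparation 6. Cxcl1, a chemokine that attracts neutrophils, changed by 0.14 ± 0.15 from a median of 11.1 (0.08 without preparation 6) and was higher in 4 of 6 pairs. In gp130flox hepatocytes Lcn2 changed by 0.66, higher in 7 of 7 pairs, and was called (limma, adjusted p = 0.00215). Cxcl1 changed by 0.41 there and was not called. Mean levels at 0 h already differed, at 13.3 in gp130flox and 9.73 in gp130- for Lcn2, and at 12.1 and 10.6 for Cxcl1. The differences of the changes of Lcn2 (-0.63) and Cxcl1 (-0.27) between the genotypes were not called, which does not show that the changes were equal.

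Saa3 and Hamp had changes above 0 in every preparation and did not pass the test. Saa3, a serum amyloid A protein of the acute phase, had a lowest, median and highest level of 4.74, 5.59 and 6.90 at 0 h and of 5.02, 6.47 and 7.58 at 12 h. Its 6 paired changes lay between 0.15 and 1.00 and were all above 0, although the ranges at the 2 times overlapped. The mean was 0.64 ± 0.26 (SE), with limma's adjusted p = 0.972 over all genes and an exact two-sided sign-flip p = 0.03125, the smallest that 6 pairs can give. Of the 71 named genes given this test 26 reached that p, and adjusted over the 71 it was 0.0853. Many of the 71 were named for a small p in these same pairs, so this adjusted value is too small and is no evidence for a change. Over all genes, 1.74% were higher and 2.04% lower in all 6 pairs.
Hamp, which encodes the iron hormone hepcidin, lay at 6.96, 9.16 and 10.1 (lowest, median and highest) at 0 h and at 7.28, 9.56 and 10.4 at 12 h, with overlapping ranges. It was higher in 6 of 6 pairs, by 0.10 to 1.30, with a mean of 0.47 ± 0.26. The exact sign-flip p was again 0.03125 (adjusted p = 0.0853 over the same 71 genes, with the same limit). Preparations 2 to 4 changed by a mean of 0.78 and preparations 6 to 9 by 0.16. In gp130flox hepatocytes the 2 genes changed by 1.61 and 1.48, and the differences of -0.97 and -1.01 were not called. Saa3 shares sequence with its serum amyloid paralogs, so its probe may read more than 1 of them.

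**Figure D2:**
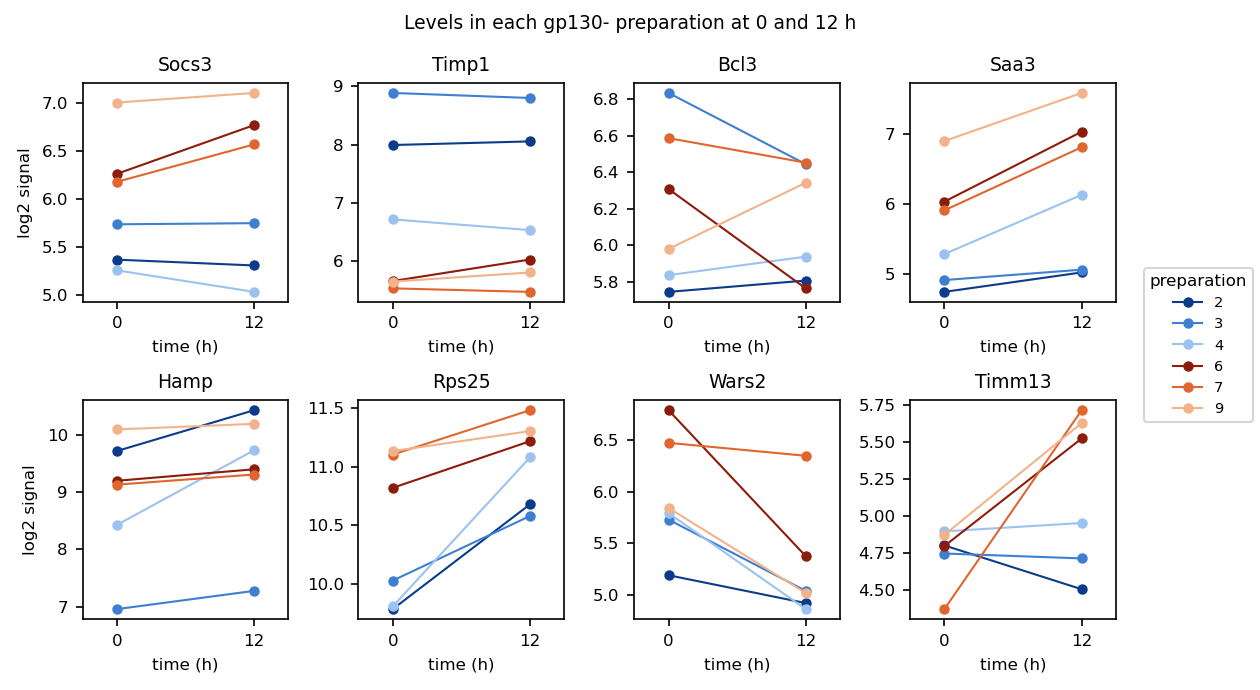
Log2 signal at 0 and 12 h of 8 genes in each gp130- preparation, 1 line per preparation (blue, preparations 2 to 4; red and orange, preparations 6 to 9). Socs3, Timp1 and Bcl3 run flat or cross, Saa3, Hamp and Rps25 are higher at 12 h and Wars2 lower in all 6 preparations, and Timm13 is higher by 0.73 to 1.34 in preparations 6 to 9.

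The genes that passed in gp130flox hepatocytes were followed into gp130- hepatocytes. At 12 h 71 were higher (0.584%) and 33 lower (0.271%) in gp130flox hepatocytes. In gp130- hepatocytes the 71 had a median change of 0.02, against 0.79 in gp130flox hepatocytes, with 41 above and 30 below 0. The 33 had a median of -0.06 against -0.66. Every one of the 104 was closer to 0 in gp130- hepatocytes, which is partly set by having been chosen on the gp130flox arrays. For 81 of the 104 (77.9%, against 94.6% of all genes) the gp130- interval lay within 1.5-fold. An unadjusted p under 0.05 was found there for 5 (4.81%, against 5.01% of all genes), a share near that of all genes: Saa3, Fcgr4, Ms4a6d, Ccnd2 and Itga2.
Ccnd2 and Itga2 of these 5 had values below 0 in both genotypes. Ccnd2, a D-type cyclin, was lower in 6 of 6 gp130- pairs, with a change of -0.54 ± 0.19 (SE) against -0.63 in gp130flox hepatocytes and a difference of 0.08. Itga2, an integrin subunit that binds collagen, changed by -0.50 ± 0.19 against -0.84, lower in 6 of 6 pairs, but by -1.61 in preparation 6 and by -0.16 to -0.48 in the others (mean -0.27). Neither passed limma's test in gp130- hepatocytes (adjusted p = 0.972), and another probe of Ccnd2 gave -0.37 and yet another 0.01.

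The difference of the changes was called for 31 genes (0.255%), 25 with a lower and 6 with a higher value in gp130- hepatocytes, and 26 of the 31 were called in gp130flox hepatocytes. The gp130- changes of these 31 ran from -0.46 to 0.38, and 1 had an unadjusted p under 0.05 (Ptcd3, a mitochondrial ribosome protein, 0.30). After Socs3 and Timp1, Denn2b, a DENN-domain exchange factor for Rab GTPases, differed by -1.39 (gp130- change -0.16, and -0.10 without preparation 6) and Pdzrn3, a ubiquitin ligase, by -1.35 (-0.46, lower in 6 of 6 pairs, while other probes of Pdzrn3 gave 0.13 and -0.06). Tgm1, a protein-crosslinking transglutaminase, changed by -0.00 in gp130- and 1.25 in gp130flox hepatocytes, and Efna5, an ephrin ligand, by -0.09 and 0.97.
Others were not flat in gp130- hepatocytes, although none passed there. Tpbg, a leucine-rich membrane glycoprotein, changed by -0.27, lower in 6 of 6 gp130- pairs, against 0.91 in gp130flox hepatocytes (difference -1.18, adjusted p = 0.0137). Bmper, a secreted BMP-binding protein, changed by 0.28 against 1.44 (difference -1.16, adjusted p = 0.0149), and was detected on 2 and 3 of 6 gp130- arrays. G0s2, an inhibitor of the lipase that starts triglyceride breakdown, ran the opposite way, with 0.38 in gp130- and -0.81 in gp130flox hepatocytes (adjusted p = 0.0456 for the difference). Its paired change was 1.23 in preparation 6, and the mean without it was 0.215.
When any 1 of the 6 gp130- preparations was left out, between 10 and 25 differences were called (12 without preparation 2, 10 without 3, 14 without 4, 14 without 6, 17 without 7 and 25 without 9). Socs3, Timp1, Bcl3, Denn2b, Cebpb and Sgk2 passed in all 6 of these fits. In none of them passed 7 of the 31, among them G0s2 and Pdzrn3 (limma's adjusted p at least 0.0684 and 0.0804). Leaving out 1 preparation does not remove the unequal share of the 2 sets of preparations in the genotypes. Values within each set are given below for the genes that passed in all 6 fits.

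**Figure D3:**
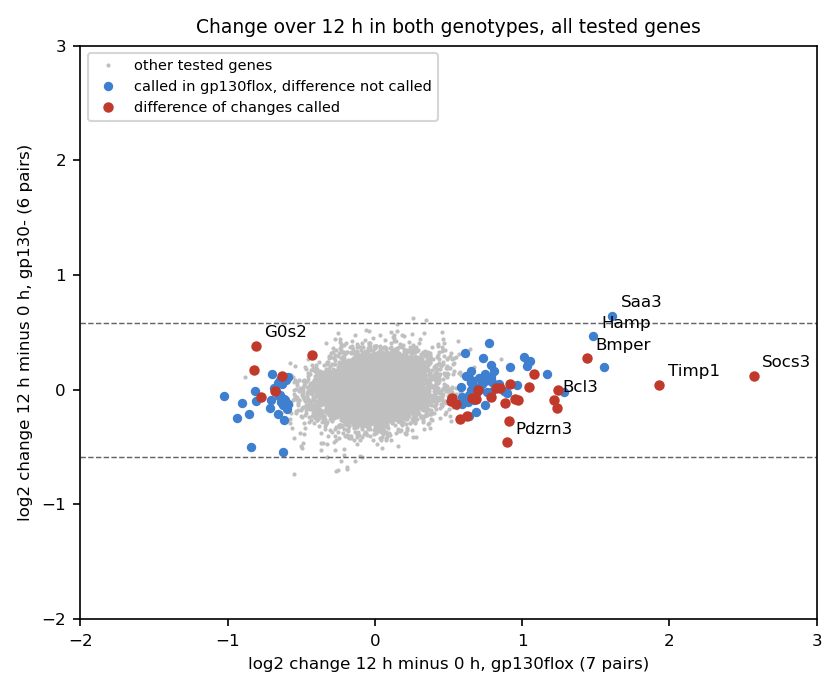
Log2 change from 0 to 12 h in gp130flox (x axis, 7 pairs) against gp130- hepatocytes (y axis, 6 pairs), 1 point per gene, with the dashed lines at 1.5-fold in gp130-. The 104 genes called in gp130flox spread along the x axis up to 2.57 (Socs3), while their gp130- changes stay between -0.54 and 0.64.

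Among the genes with the smallest p in gp130- hepatocytes, given as values because none was called, several had paired changes of the same sign in all 6 preparations. Rps25, a protein of the small ribosomal subunit, had a lowest, median and highest level of 9.79, 10.4 and 11.1 at 0 h and of 10.6, 11.1 and 11.5 at 12 h. All 6 pairs were higher, by 0.17 to 1.27, and the mean was 0.61 ± 0.15 (SE, adjusted p = 0.507). Its change was 0.34 in gp130flox hepatocytes, and ribosomal protein genes have processed pseudogenes that a probe can also read. Wars2, a mitochondrial tryptophanyl-tRNA synthetase, lay at 5.19, 5.82 and 6.78 at 0 h and at 4.87, 5.03 and 6.34 at 12 h, with all 6 pairs lower by 0.13 to 1.41 and a mean of -0.70 ± 0.18 (adjusted p = 0.663).
Of the other genes higher at 12 h, Tef, a transcription factor of the circadian output, changed by 0.48 ± 0.14 (5 of 6 pairs), and Fmo4, a flavin-containing monooxygenase, by 0.52 ± 0.13 (6 of 6). Olfr412, an odorant receptor gene, had the smallest p of all (adjusted p = 0.391) with a change of 0.50, but its signals of 4.28 to 5.44 lay near background, detected on 2 arrays at 0 h and 5 at 12 h. Fmo4, Angptl1, Wdr90 and Efcab2 were likewise detected on at most 3 of 6 arrays at 0 h, so that their levels there are near background. Dnajc24 (0.36), Rfesd (0.38) and Vcpkmt (0.41) complete the upper 10.
Of those lower at 12 h, Rarb, a retinoic acid receptor, changed by -0.51 ± 0.12 (5 of 6 pairs lower, adjusted p = 0.506) and by -0.50 in gp130flox hepatocytes. Tob1, an antiproliferative protein, changed by -0.41, Prkca, a protein kinase C, by -0.40 and Prkcsh, a subunit of the glucosidase that trims new glycoproteins, by -0.34, each lower in 6 of 6 pairs. Without preparation 6 the last 2 changed by -0.26 and -0.20. Bach1, a repressor that heme releases from DNA, changed by -0.69, but 2 of 6 pairs were higher. Gba2, Gng13 and Sh2d3c were detected on 5, 3 and 2 arrays at 0 h and on none at 12 h, so that their levels at 12 h are only bounded. Over all genes, 212 (1.74%) were higher and 248 (2.04%) lower in all 6 pairs.

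Gene groups were read against these shares and against the 48.3% of all genes with a change above 0. Of 38 lists, 0 had a called member. Their 808 distinct tested genes held 38 with an unadjusted p under 0.05 (4.7%), near the 5.01% of all genes. The median of a list ran from -0.10 to 0.15. Without preparation 6 it turned in sign in 11 lists and moved by over 1.5 times in 16 others. No other preparation was left out in this way, so whether medians this near 0 would shift as often without another was not tested.

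Interferon response genes and chemokines had the highest medians of the 38 lists. Of 28 tested interferon response genes, 25 were above 0, with a median of 0.15, and the median was above 0 in each of the 6 preparations (0.02 to 0.22). Bst2, which tethers budding virus to the cell, changed by 0.51, Isg15, a ubiquitin-like modifier, by 0.47, and Mx2, an antiviral GTPase, by 0.37, and with Oas1a, a sensor of double-stranded RNA (0.34), they had an unadjusted p under 0.05. Oas1a was detected on 3 of 6 arrays at each time, changed by -0.05 to 0.01 in preparations 2 to 4 and by 0.44 to 1.11 in preparations 6 to 9, and its mean was 0.185 without preparation 6. In gp130flox hepatocytes the list's median was -0.03. The median was 0.12 without preparation 6, with 25 of 28 above 0.
Of 20 chemokines, 19 were above 0, with a median of 0.14 that was also above 0 in every preparation (0.02 to 0.55) and was 0.14 in gp130flox hepatocytes. Ccl7, which attracts monocytes, changed by 0.45 (6 of 6 pairs) and Ccl6 by 0.37 (5 of 6), both with an unadjusted p under 0.05, and Cxcl9 by 0.35 (6 of 6). Without preparation 6 the 3 changed by 0.36, 0.19 and 0.17. The top value came from preparation 6, where the macrophage and Kupffer cell markers had a median of 0.47. Without it the chemokine median was 0.10, with 18 of 20 above 0, and the marker median was -0.02, with 7 of 18 above 0. Fewer cells of a type and less RNA per cell cannot be told apart in such samples, and the part of these markers in the chemokine values was not tested.
NF-kappaB targets had a median of 0.07 with 18 of 27 above 0 (0.02 with 19 above 0 without preparation 6), and Sod2, a mitochondrial superoxide dismutase, changed by 0.26 in the same direction in 6 of 6 pairs. Of 25 complement genes 19 were above 0, with a median of 0.06 and with C4bp, a complement inhibitor, the highest at 0.23 (6 of 6 pairs). Coagulation genes were split, 13 above and 13 below 0.

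Acute phase genes lay slightly above 0. Of 25 tested positive acute phase genes 19 were above 0 and the median was 0.11, against 0.44 in gp130flox hepatocytes, where 6 were called higher. After Saa3 and Hamp, the fibrinogen gene Fgg changed by 0.27 and Saa4 by 0.24, each in 6 of 6 pairs, while Hp, haptoglobin, changed by -0.06. The median was 0.19 in preparations 2 to 4 and -0.00 in preparations 6 to 9. Of 26 STAT3 targets 14 were above 0 with a median of 0.02, which was -0.145 in preparation 6 and 0.0552 without it, with 19 above 0. In gp130flox hepatocytes it was 0.63 with 13 called, and 6 had a called difference. These targets include genes that the study picked on the same samples, so their values in gp130- hepatocytes are not independent of that choice. Carrier proteins that fall in the acute phase had a median of 0.02, with albumin the highest at 0.29, a gene detected on 3 of 6 arrays at each time that changed by 1.07 in preparation 6 and by a mean of 0.13 without it.

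Metabolic and detoxifying genes had list medians close to 0. Of the 40 tested cytochrome P450 genes only 18 were detected on all 12 arrays. Some lay near background in preparations 2 to 4, as Cyp2c54 did at 4.25 to 4.38, and a fall cannot show there. A median near 0 is therefore not evidence that such genes were stable. Of 40 cytochrome P450 genes 21 were above 0, with a median of 0.00 and a range from -0.29 (Cyp8b1, of bile acid synthesis, -0.15 without preparation 6) to 0.26 (Cyp2a4). Conjugating enzymes had a median of 0.06 (0.03 without preparation 6), with Gstt2, a glutathione transferase, at 0.37, and genes of the urea cycle and amino acid breakdown one of 0.08. Fatty acid oxidation had a median of 0.00, with Acot4, an acyl-CoA thioesterase, at -0.26. Of 32 genes of cholesterol and fatty acid synthesis 23 were below 0, with a median of -0.06 (-0.192 in preparation 6, and -0.02 with 15 of 32 above 0 without it), and Thrsp, a lipogenic regulator, stood apart at 0.51, higher in 6 of 6 pairs (0.00 to 1.00). Genes of glucose handling had a median of -0.03 (0.04 without preparation 6), with Pfkp, a phosphofructokinase, at -0.31 by its tested and 0.01 by another probe.
Liver transcription factors had a median of -0.09, but of -0.47 in preparation 6 and between -0.04 and 0.10 in the others, and without preparation 6 the median was 0.03. Foxa1, a pioneer factor of the liver, changed by -0.29 against 0.24 in gp130flox hepatocytes. Of 20 clock genes 7 were above 0 (10 without preparation 6), and apart from Tef and Cry2, a repressor of the clock, none had an unadjusted p under 0.05. Bile and drug transporters had a median of 0.00 (0.07 without preparation 6).

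Genes of stress and culture adaptation did not move together. Immediate early genes, which respond within minutes to isolation or medium change, had a median of 0.02 with 0 of 24 at an unadjusted p under 0.05. Heat shock genes (-0.07), the unfolded protein response (-0.05), the ATF4 response (-0.03), hypoxia targets (-0.03), p53 targets (-0.01), NRF2 targets (-0.01) and glucocorticoid targets (0.00) all had medians within 0.1 of 0. Without preparation 6 the medians of heat shock genes (0.02), hypoxia targets (0.03) and NRF2 targets (0.05) lay above 0. Their members with the smallest p were Ahsa1, an HSP90 co-chaperone (0.24), Syvn1, a ubiquitin ligase of the endoplasmic reticulum (-0.18), the amino acid transporter Slc38a2 (-0.31), Bnip3l, a mitophagy receptor (-0.27, lower in 6 of 6 pairs), the cell cycle inhibitor Cdkn1a (-0.20), the epoxide hydrolase Ephx1 (-0.31), and Tsc22d3, which encodes the glucocorticoid-induced leucine zipper (0.30, higher in 6 of 6).
Several of these rest on 1 preparation or 1 probe. Without preparation 6, Syvn1 changed by -0.05, Slc38a2 by -0.155 and Cdkn1a by -0.11. Other probes gave -0.03 and 0.16 for Cdkn1a and -0.14 and 0.03 for Tsc22d3.
Targets of YAP and genes of the cytoskeleton mostly lay below 0. Of 41 tested members 30 were below 0, with a median of -0.08 that was at or below 0 in each preparation. Tubb5, a beta tubulin, changed by -0.27 (-0.17 without preparation 6) and Tagln2, an actin-binding protein, by -0.22 in 6 of 6 pairs, both with an unadjusted p under 0.05, while Lgals1, a galectin, changed by 0.29. The matrix and integrin list had a median of -0.00, growth factors and their feedback one of -0.04 with Spred1, an inhibitor of Ras signaling, at -0.29, and BMP, activin and TGF-beta responses one of -0.10 with Fst, follistatin, at -0.26. Of 38 cell cycle genes 20 were above 0, and the replication factors Mcm3 (0.33) and Mcm7 were opposed by Ccnd2, Cdk6 and Cdc25a. Ribosomal proteins had a median of 0.06 (0.02 without preparation 6, Rpl19 0.18), ribosome biogenesis one of -0.05 (Polr1a -0.21) and the proteasome and autophagy list one of 0.03 (Map1lc3a 0.27, and -0.10 by another probe).

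Markers of liver cell types spanned overlapping ranges at the 2 times. The mean level of the Kupffer cell and macrophage list ranged from 5.53 to 8.15 at 0 h and from 5.40 to 8.21 at 12 h, that of the endothelial list from 4.91 to 7.02 and from 4.86 to 7.07, and that of the stellate list from 5.28 to 6.13 and from 5.16 to 6.20. Cholangiocyte markers ranged from 6.35 to 7.51 and from 6.44 to 7.55, and hepatocyte markers from 6.31 to 10.2 and from 6.40 to 10.3. Of the 19 Kupffer cell and macrophage markers 10 were detected on all 12 arrays, as were 3 of 18 endothelial, 3 of 18 stellate and 3 of 11 cholangiocyte markers. These pooled counts hide the sets. In preparations 6 to 9, 16 Kupffer cell and macrophage, 13 endothelial, 4 stellate and 3 cholangiocyte markers were detected on all 6 arrays. The counts in preparations 2 to 4 were 10, 3, 7 and 5. Detected on none of the 12 arrays were 1 Kupffer cell marker (Cd5l) and 2 endothelial markers (Vwf and Erg). So were 6 stellate markers (Lrat, Pdgfrb and Col1a2 among them) and 3 cholangiocyte markers (Epcam among them). Clec4f, a Kupffer cell lectin, changed by 0.22, Fcgr2b by 0.16, the stellate cell gene Reln by -0.32 and Cldn4, a claudin, by -0.30, with Cldn4 alone at an unadjusted p under 0.05. Without preparation 6 these 4 changed by 0.11, 0.01, -0.18 and -0.19. Arg1, a urea cycle enzyme and hepatocyte marker, changed by 0.25 and was higher in 6 of 6 pairs.

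**Figure D4:**
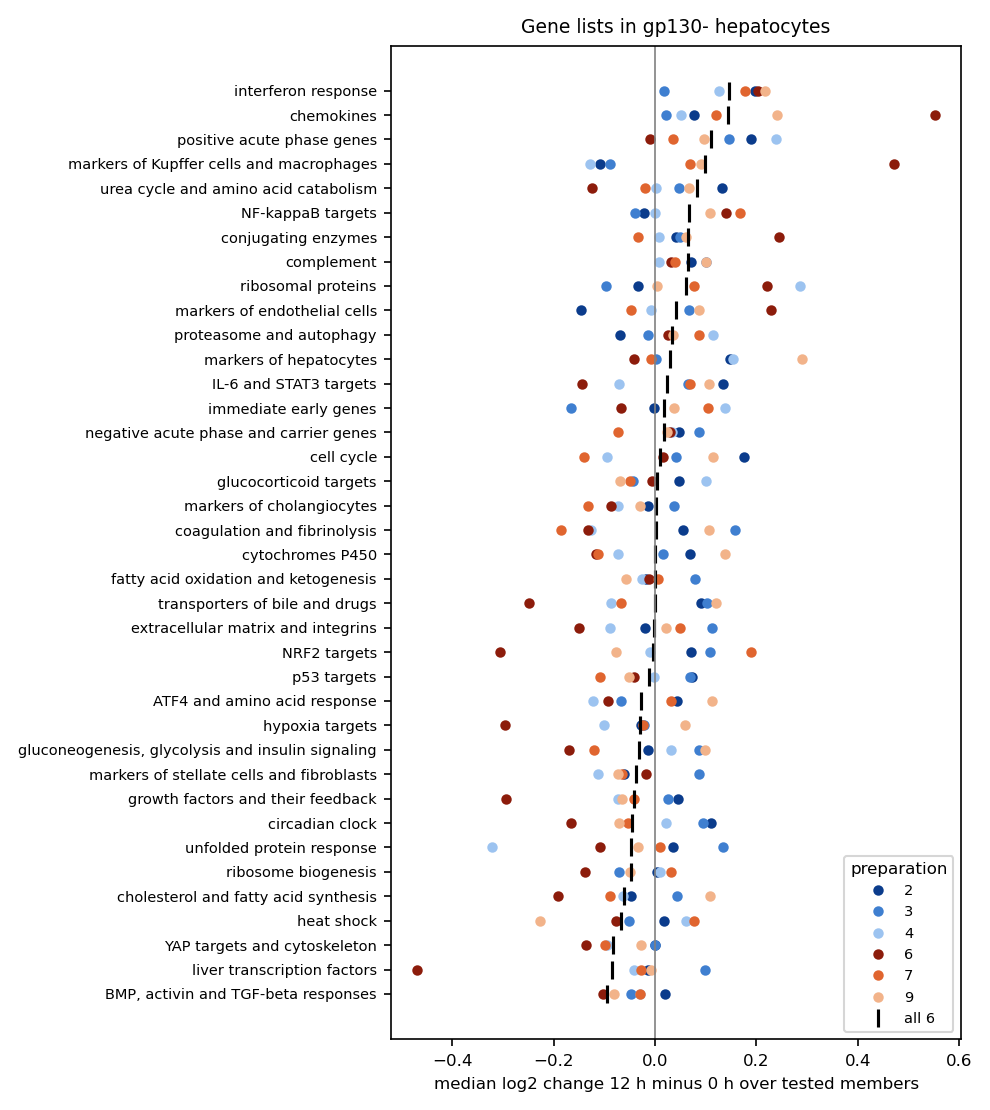
Median log2 change (12 h minus 0 h) of each of 38 gene lists in each gp130- preparation (points) and over all 6 (black ticks), ordered by the latter. Interferon, chemokine and complement lists lie above 0 in all 6 preparations and the YAP and cytoskeleton list at or below 0, while preparation 6 often lies far from the rest, as for liver transcription factors (-0.469).

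The earlier times place 12 h in a course that shares its 0 h arrays. In gp130- hepatocytes 0 genes were called at 1 h, 5 at 3 h (0.0411%) and 0 at 6 h, and an F-test over all 4 later times together called 0, with 482 genes (3.96%) at an unadjusted p under 0.05. The 5 at 3 h were Irgm2, Igtp and Tgtp1, which encode interferon-inducible GTPases, the interferon regulatory factor Irf1, and Abcc4, an efflux pump that was lower. They changed by 1.47, 1.38, 1.32, 1.22 and -0.70 at 3 h and by 0.04, 0.20, 0.07, 0.03 and -0.19 at 12 h. Their intervals at 12 h all included 0, and Tgtp1 was detected on 1 array at 0 h and 2 at 12 h. Leaving out preparation 6 gave 2 genes in the joint test (Irf1 and Irgm2), and leaving out preparation 9 gave 4 (these with Igtp and Tgtp1). The 5 genes called at 3 h were named after their values were seen, as was Timm13 below.

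**Figure D5:**
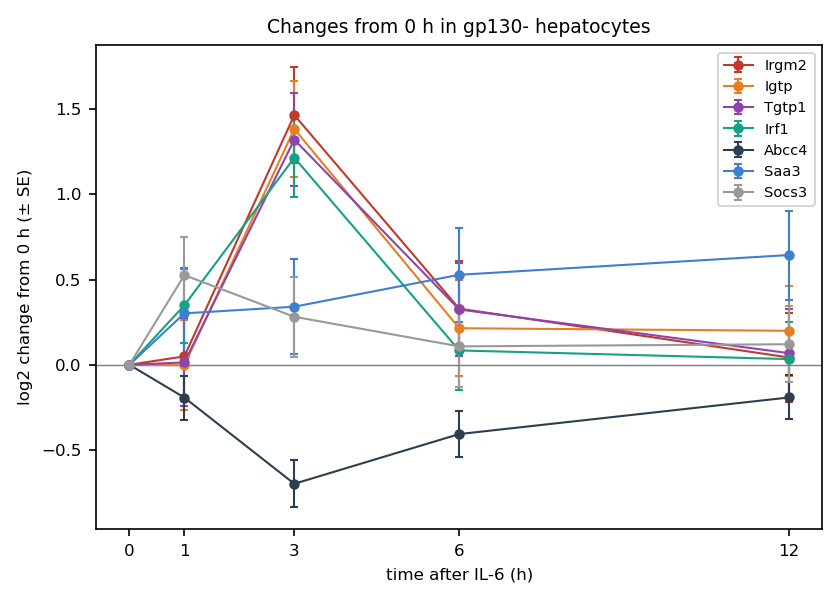
Log2 change from 0 h (limma estimate ± SE, 6, 5, 5 and 6 gp130- arrays) at 1, 3, 6 and 12 h in gp130- hepatocytes for 7 genes. Irgm2, Igtp, Tgtp1 and Irf1 peak at 3 h (1.22 to 1.47) and lie between 0.03 and 0.20 at 12 h, while Saa3 is at 0.64 at 12 h and Socs3 at 0.12.

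Within preparations 2 to 4, 0 genes were called (0%, 208 at an unadjusted p under 0.05), and within preparations 6 to 9, 2 were (0.0165%, 1083 at an unadjusted p under 0.05). Timm13, a chaperone of the mitochondrial intermembrane space, was higher at 12 h by 0.94 (adjusted p = 0.00444) within the latter, with paired changes of 0.73, 1.34 and 0.75, and Olfr412 by 0.77 (adjusted p = 0.0140). Within preparations 2 to 4 they changed by -0.09 and 0.23. Timm13 levels were low throughout, from 4.37 to 4.89 at 0 h and from 4.50 to 5.71 at 12 h. The difference between the 2 sets was called for 0 genes, with 560 at an unadjusted p under 0.05, and was 1.03 for Timm13 (adjusted p = 0.350). With array weights or without preparation 7 or 9 the count within preparations 6 to 9 was 27, 11 or 24, and with the offset at 50 or without background correction it was 0.
Differences between the genotypes were also taken within each set of both genotypes. Within preparations 1 to 4 (3 gp130- and 2 gp130flox preparations) 4 genes were called, and within preparations 6 to 11 (3 and 5) 77 were. Of the 31 genes called over all preparations, Socs3 alone had an adjusted p under 0.05 (limma) within preparations 1 to 4. Standard errors were larger there, with a median of 0.267 against 0.213. Denn2b differed by -0.57 within preparations 1 to 4 and by -1.84 within preparations 6 to 11, and Sgk2 by 0.25 and 1.23. Bcl3 differed by -1.18 and -1.36, and Cebpb by -0.72 and -0.83. Socs3 differed by -2.38 (adjusted p = 0.0340) and -2.35 (adjusted p = 3.98e-04) in the 2 sets, and Timp1 by -0.60 (adjusted p = 1) and -2.33 (adjusted p = 9.67e-05).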

How the data were processed

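Illumina MouseWG-6 v2 signals of 45281 probes were used, as an intensity that the authors extracted with GenomeStudio 1.6.0 and deposited without normalization, each with a deposited detection p-value. A second table of deposited intensity values, cubic-spline normalized by the authors, served as an alternative. Both deposited tables are linear, and all log2 values were computed from what the authors deposited.

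In R 4.3.3 with limma 3.58.1, neqc corrected the background (negative controls estimated through each probe's detection p), added 16, quantile-normalized and took log2. Kept were 23163 probes whose detection p fell under 0.05 on 5 or more of 61 arrays, and the brightest probe of each gene was tested (12157 genes; 34885 probes carried 1 gene, 18 several and 10378 none). All 61 arrays were fitted with lmFit and eBayes, with a mean per genotype and time and the preparation (genotype and column number) as a fixed block, so the contrast is the mean of 6 paired differences. Sources do not say what the number marks (the study's supplement counts fewer mice than these numbers, and its methods give only a lower bound). The 0 h and 12 h arrays of 1 number correlated, after removal of group means, at 0.782 to 0.939 in all 6 pairs. A 12 h array was closest to its own 0 h array in 5 of 6, the exception being preparation 6, whose 12 h array was closest to the 0 h array of preparation 7. With 12 h arrays of other numbers, the highest correlation of a 0 h array ran from 0.481 (preparation 4) to 0.86 (preparation 2). For preparation 7 it was 0.849, against 0.842 with its own. The numbers were taken to pair the arrays, as every correlation was over 0.1. Arrays of other numbers can pass this mark too, so it cannot show that the numbers pair arrays. Deposited columns name a group and a number but no sample title. Of these columns, 0 were copies of another and 0 stayed unassigned. The script was tested on simulated data.

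The comparison, the 38 gene lists and the tests were chosen with earlier results of these data known. Genes named are Il6st, the 10 with the smallest p in each direction (none being called), the smallest-p or called members of each list, the 10 called genes with the largest difference between genotypes, 8 genes the study names, and a few others named after their values were seen. Single genes also had an exact two-sided sign-flip test. Each standard error is moderated by limma, and intervals are at 95%. Alternatives comprised other blocks, normalizations, filters, thresholds, probes and weights, the deposited normalized table with values under 16 set to 16, and leaving out each preparation. Promoters came from RefSeq, GRCm38.p6.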

Additional observations from a re-analysis of the deposited data

Results flagged for a closer look

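Among 71 named genes, the paired change of 1 preparation lay far from those of the other 5 in 6 genes. Preparation 6 stood out for Itga2 (-1.61, others -0.475 to -0.159), Prkcsh (-1.05, others -0.327 to -0.0481), Cyp2c54, a cytochrome P450 (0.969, others -0.0574 to 0.149), and Fcgr2b, an Fc receptor of sinusoidal endothelium (0.928, others -0.0473 to 0.113). Preparation 7 stood out for F8, coagulation factor VIII (-0.627, others -0.166 to -0.0288), and Vcpkmt (0.814, others 0.145 to 0.386). Among 38 lists, the median of preparation 6 stood out in 4, at -0.469 for liver transcription factors, 0.244 for conjugating enzymes, -0.295 for growth factors and their feedback and 0.471 for Kupffer cell and macrophage markers. Chance alone marks about 1 group in 20. Of the 10 marks, 8 fell on preparation 6, which also had the widest spread of changes over all genes.

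The change over 12 h differed between the genotypes, by a test of the difference itself, for 31 genes. Of those named, the difference (gp130- minus gp130flox) was -2.45 for Socs3, -1.89 for Timp1, -1.39 for Denn2b, -1.35 for Pdzrn3, -1.30 for Bcl3, -1.25 for Tgm1, 1.20 for G0s2, -1.18 for Tpbg, -1.16 for Bmper, -1.06 for Efna5 and -0.863 for Nfkbiz.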

How the results depend on the processing

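The count of 0 genes called at 12 h in gp130- hepatocytes was 0 under every alternative run but array weights, which called 1 (Rps25, 0.741, adjusted p = 0.00327). It stayed 0 with no replicate block (90 genes at an unadjusted p under 0.05), with the preparation as a random effect, and without each preparation in turn (0 to 0). The 31 differences between the genotypes became 0 with no replicate block, 13 with the replicate block as a random effect, 18 with only the arrays compared, 19 with no detection filter, and 10 to 25 without 1 gp130- preparation. They were 4 within preparations 1 to 4 and 77 within preparations 6 to 11, and these, like the list medians and single-gene means without preparation 6, were added after seeing the data. The 2 calls within preparations 6 to 11 became 0 with only the gp130- arrays at 0 h and 12 h, with quantile normalization alone and with offset 50, 27 with array weights, 11 at an adjusted p under 0.10, and 2 to 24 without 1 preparation. Array weights gave 4 calls within preparations 1 to 4 and 1 for the difference between the sets, where leaving out preparations gave 0 to 0. The joint test gave 0 with no replicate block and 0 to 4 without 1 preparation. The causes of these shifts were not tested. Of the single-gene values, 986 comparisons with an alternative and 426 without 1 preparation kept their side of the threshold. None of these changed direction past 1 standard error, and 1 further comparison gained a call. Because no gene was called in the main fit, this tally was nearly fixed in advance and does not show that single values held. Of 71 named genes, 28 moved by over 1.5 times or turned in sign without preparation 6. With 6 pairs, and a spread estimated from all 61 arrays, the 95% half-width of a change had a median of 0.243. Smaller changes therefore cannot be told from 0, and signals near background bound the changes of dim genes.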
